A study of Mus musculus with 37 samples.

Results

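Nuclear receptors of brown fat metabolism are described here through 10 genes, *Pparg*, *Ppara*, *Ppard*, *Rxra*, *Rxrg*, *Nr1h3*, *Esrra*, *Esrrg*, *Thra* and *Thrb*. They were named as a group of receptors and found on the array by gene symbol, and each had 1 probe set. They are 10 of the 24657 different gene symbols on the array. Nuclear receptors are transcription factors that bind DNA through zinc fingers, and most of them change the activity of their target genes when a small fat-soluble ligand enters their ligand-binding pocket. In brown fat the PPARs respond to fatty acids and their derivatives, the thyroid hormone receptors to triiodothyronine, and the liver X receptor to oxysterols, and all of these bind DNA together with a retinoid X receptor. The estrogen-related receptors need no known hormone and act with PGC-1 coactivators on genes of mitochondrial respiration.

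The study asked how inherited differences between mouse strains relate to metabolism and activity. BXD strains are inbred, and each carries a different mosaic of the genomes of C57BL/6J and DBA/2J. Brown adipose tissue came from male mice aged 29 weeks that ate a chow diet and were fasted overnight. RNA from about 5 mice of a strain was combined in equal amounts, and 1 Affymetrix array was run for each of 35 BXD strains, for C57BL/6J and for DBA/2J. With 1 array per strain there is no error within a strain, so spread means the spread between strains, and the number of arrays limits the precision.

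The BXD strains were BXD43, BXD45, BXD48, BXD49, BXD50, BXD51, BXD55, BXD56, BXD61, BXD62, BXD64, BXD65, BXD66, BXD68, BXD69, BXD70, BXD71, BXD75, BXD79, BXD80, BXD81, BXD83, BXD84, BXD85, BXD87, BXD89, BXD90, BXD92, BXD95, BXD96, BXD97, BXD98, BXD99, BXD101 and BXD103. Values are scores on a scale that sets the mean of every array to 8 and its SD to 2, and one step on it is called a unit. A probe set was taken as above background when its mean over the 35 BXD strains passed 7.94 units, the 95th percentile of the means of 1128 probe sets for olfactory receptors. Levels of different probe sets depend on their probes and were not set against each other.

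The tissue label was checked with markers. All 9 brown fat markers were above background, and *Ucp1*, the uncoupling protein of thermogenesis, had a mean of 15.37 units. The summed level of these markers was lowest in BXD97 at 110.1 units, had a median of 116.0 units and was highest in BXD87 at 121.0 units. Markers of other tissues or cell types were also above background: 7 of 7 for white fat, 13 of 13 for skeletal muscle and 7 of 7 for endothelium. Which cells these transcripts came from was not tested. Of the macrophage markers 5 of 8 were above background, *Cd68* among them. Of the lymphocyte markers 1 of 8 passed, *Cd3e*, and of the red blood cell markers 2 of 4, *Slc4a1* among them.

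Some arrays stood apart. Of 10 liver markers 3 were above background in the mean, *Ttr* among them, and their summed level ran from 67.6 units in BXD103 over a median of 70.2 units to 120.6 units in BXD70. DBA/2J also carried liver transcripts, with a sum of 102.3 units, while the next BXD strain, BXD66, reached 80.6 units. The summed level of the muscle markers was lowest in BXD65 at 123.2 units, had a median of 159.7 units and was highest in BXD97 at 173.0 units. Each of the 13 muscle markers was lowest in BXD65 and highest in BXD97. In such pieces of tissue, fewer cells of a type and less RNA per cell cannot be told apart.

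All 10 receptors were above background in each of the 35 BXD strains. *Pparg*, the receptor that drives fat cell differentiation, had its lowest value in BXD79 at 13.42 units, a median of 13.68 units and its highest value in BXD95 at 13.998 units. *Ppara*, which acts on genes of fatty acid oxidation, was lowest in BXD61 at 11.75 units, had a median of 12.31 units and was highest in BXD49 at 12.54 units. *Ppard*, the most widely expressed PPAR, was lowest in BXD97 at 9.89 units, had a median of 10.27 units and was highest in BXD66 at 10.52 units. The low end of *Ppara* consisted of BXD61 and BXD70, the latter being the array with liver transcripts, and that of *Ppard* of BXD97 alone.

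*Rxra*, a common partner of the other receptors, was lowest in BXD85 at 10.42 units, had a median of 10.64 units and was highest in BXD55 at 10.97 units. *Rxrg*, another form of this partner, was lowest in BXD79 at 10.01 units, had a median of 10.28 units and was highest in BXD45 at 10.61 units. *Nr1h3*, which encodes the liver X receptor alpha, was lowest in BXD83 at 9.85 units, had a median of 10.24 units and was highest in BXD90 at 10.58 units. BXD79 was low and BXD90 high in both *Rxrg* and *Nr1h3*.

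*Esrra*, which encodes the estrogen-related receptor alpha, was lowest in BXD79 at 10.14 units, had a median of 10.38 units and was highest in BXD90 at 10.74 units. *Esrrg*, its relative, was lowest in BXD79 and BXD101 at 9.41 units, had a median of 9.61 units and was highest in BXD85 at 9.86 units. Both were thus low in BXD79, and BXD90 was at or next to the top of both. *Thra*, one of the thyroid hormone receptors, was lowest in BXD95 at 9.48 units, had a median of 9.84 units and was highest in BXD103 at 10.14 units. *Thrb*, the other one, was lowest in BXD92 at 10.04 units, had a median of 10.46 units and was highest in BXD43 at 11.04 units. BXD43 stood alone at the top of *Thrb*, since BXD56 followed at 10.70 units.

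**Figure D1:**
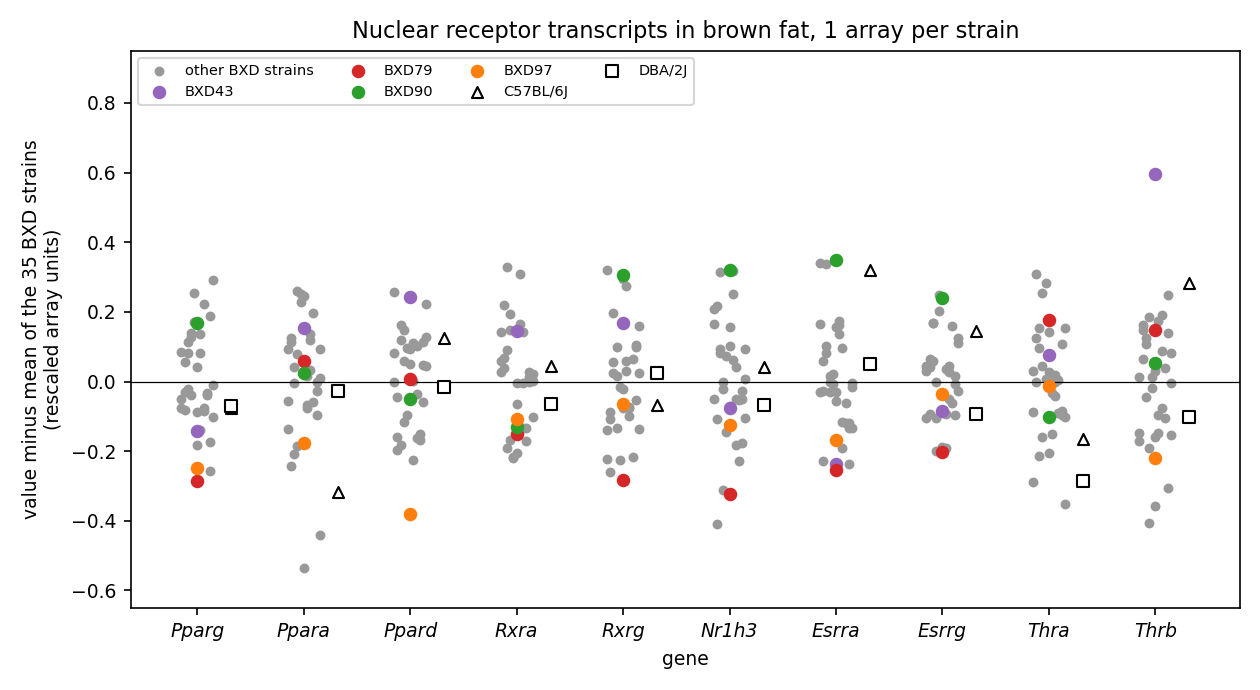
Value of each receptor minus its mean over the 35 BXD strains, in rescaled array units, with 1 point per BXD strain and open symbols for C57BL/6J and DBA/2J. BXD79 is lowest in 4 genes, in *Esrrg* together with BXD101, and BXD43 lies apart at the top of *Thrb*.

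The spread of the receptors between strains was small. Their standard deviations over the 35 strains ran from 0.13 units for *Esrrg* to 0.19 units for *Thrb*, and the median over the 19436 probe sets above background was 0.19 units. Only *Thrb* spanned at least 1 unit from its lowest to its highest strain, 1 of 10 receptors, whereas 40.7% of all 41155 probe sets and 35.2% of those above background did so. The range of *Thrb*, 1.002 units, rested on BXD43 and BXD92, and leaving out either took it below 1 unit. The median range of the 10 receptors was 0.62 units, against 0.83 units for all probe sets above background. BXD79 gave the lowest value of 4 receptors, *Pparg*, *Rxrg*, *Esrra* and, tied with BXD101, *Esrrg*. BXD61, BXD80 and BXD84 were each below the strain mean in 9 of 10 receptors. BXD97 was below it in 10 of 10, and this strain also had the lowest sum of the brown fat markers and the highest of the muscle markers. Whether its receptor values follow from its tissue content was not tested.

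The parents were compared as 1 array each, with no test, and the part of the liver transcripts of the DBA/2J array in these differences was not tested. The largest difference belonged to *Thrb*, at 10.34 units in DBA/2J and 10.73 units in C57BL/6J, which is −0.39 units for DBA/2J minus C57BL/6J. Of all probe sets, 20.4% differed by at least this much. *Ppara* was the receptor with the largest excess in DBA/2J, 12.26 against 11.97 units, a difference of 0.29 units. *Esrra* differed by −0.27 units and *Esrrg* by −0.24 units. None of the 10 receptors passed 0.77 units, the 95th percentile of the absolute difference over all probe sets, and 4 passed its median of 0.18 units. The smallest difference was that of *Pparg*, 0.01 units, and it was −0.01 units when each array was centred on its median. For *Thra* both parents lay low among the strains, and 31 of 35 BXD strains were above the higher parent. For *Esrra* both lay above the median, and 23 BXD strains were below the lower parent.

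Covariation was tested with limma, taking each receptor in turn as a continuous covariate for all other 41154 probe sets over the 35 strains, with Benjamini-Hochberg adjustment over the whole array and an adjusted p under 0.05 as the limit. A pair of receptors was called when both of its fits passed. Beside these stand Pearson's r and Spearman's rho, each with a two-sided p from 100000 permutations, and r without the pair of strains farthest from the median of the receptor taken as covariate. Of the 45 pairs, 32 had an r above 0, and the median r was 0.191, while 49.9% of all pairs of probe sets above background had an r above 0. The pairs share receptors and are not independent of each other.

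1 of the 45 pairs was called, *Nr1h3* with *Esrra*. Of all probe sets 0.469% rose with *Nr1h3* and 0.0923% with *Esrra* in limma. Both genes were low in BXD79 and BXD83 and highest in BXD90. The r was 0.72 and rho 0.74, each with a permutation p of 1e-05, which is the smallest these permutations can give. Without BXD83 and BXD90 the r was 0.65, and the pair was not called in the fits that left out the 2 farthest strains of each receptor, nor at an adjusted p of 0.01. In limma the adjusted p was 0.00504 with *Nr1h3* as covariate and 0.0152 with *Esrra* as covariate. Leaving out 1 strain at a time kept the call each time, with r between 0.68 and 0.75. With the mean of the brown fat markers as a further covariate, chosen after seeing the data, the r was 0.58 and the pair was no longer called.

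**Figure D2:**
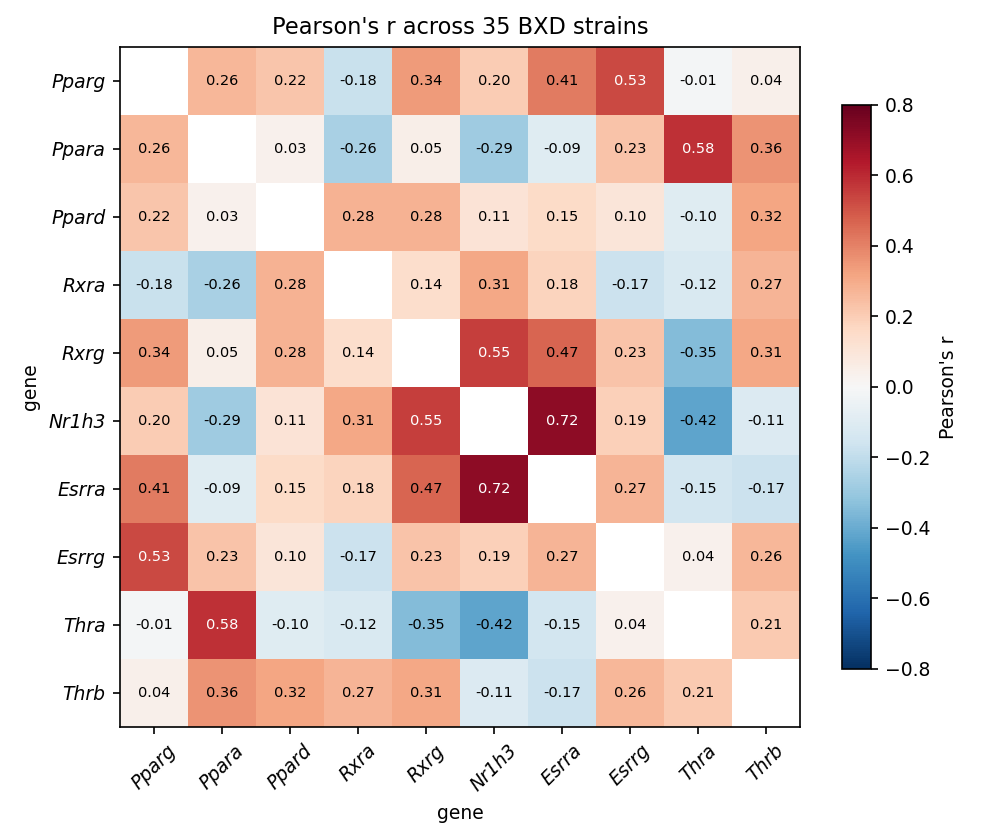
Pearson's r for each of the 45 pairs of receptors over 35 BXD strains, in color from blue for negative to red for positive. The darkest square off the diagonal is *Nr1h3* with *Esrra* at 0.72.

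The other pairs were not called. *Ppara* and *Thra* had an r of 0.58 and a rho of 0.66, with permutation p of 0.00031 and 3e-05, and 0.57 without BXD61 and BXD70, but limma gave adjusted p of 0.140 and 0.0952. *Rxrg* and *Nr1h3* had an r of 0.55 and a rho of 0.44, with permutation p of 0.0006 and 0.00798, and 0.48 without BXD45 and BXD90, at limma adjusted p of 0.0964 and 0.0734. This pair was called when probe sets at or below background were left out of the fit. *Pparg* and *Esrrg* had an r of 0.53 and a rho of 0.53, with permutation p of 0.00117 and 0.00124, and 0.46 without BXD65 and BXD95, at limma adjusted p of 0.120 and 0.153. The lowest r was −0.42, for *Nr1h3* with *Thra*, with a rho of −0.39, permutation p of 0.0117 and 0.0201, and −0.39 without BXD83 and BXD90, at limma adjusted p of 0.239 and 0.329. Of the 45 pairs, 10 had a permutation p of r under 0.05, of which 8 were positive and 2 negative.

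Across the array, 103 probe sets rose with *Pparg* (0.25%) and 389 fell (0.945%) in limma. Leaving out 1 strain moved the total between 337, without BXD95, and 557, without BXD89, and the number rising between 49 and 128. With arrays centred on their median 180 rose and 356 fell, and under quantile normalization 59 rose and 347 fell. With dim probe sets left out 194 rose and 424 fell. Without the 2 farthest strains 9 rose and 64 fell, and with the brown fat markers as a further covariate 7 rose and 42 fell. The mean of the brown fat markers had an r of 0.49 with *Pparg*, a rho of 0.50, permutation p of 0.00313 and 0.00255, and 0.49 without BXD65 and BXD95, at a limma adjusted p of 0.0854. None of the other 9 receptors was among the calls, and 3 rose at an unadjusted p under 0.05. All 13 skeletal muscle markers fell as *Pparg* rose. The strains with the highest *Pparg*, BXD95 and BXD65, had little muscle transcript, and those with the lowest, such as BXD79 and BXD97, had much. With the mean of the muscle markers, each scaled to an SD of 1, *Pparg* had an r of −0.66 and a rho of −0.67, with permutation p of 3e-05 and 2e-05, and −0.54 without BXD65 and BXD95. The limma adjusted p was 0.00424, in a fit that called 1.87% of all probe sets with the muscle markers. That call was lost without the 2 farthest strains and with the brown fat markers as a further covariate. The part of muscle transcripts in the values of *Pparg* was not tested. With the mean of the muscle markers as a further covariate, 0 probe sets were called with *Pparg* in limma, and 2231 passed an unadjusted p under 0.05, against 4246 without that covariate.

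By likeness, the genes with the highest r to *Pparg* were *Cd274* (0.78), *Ogdh* (0.76) and *BC013529* (0.74), and the lowest was *2310050B05Rik* (−0.78). All 4 passed in limma, at adjusted p of 0.000615, 0.0038, 0.0011 and 0.000615, and each had a permutation p of 1e-05. With the muscle covariate their r were 0.67, 0.59, 0.53 and −0.55, without a call. *Ogdh* encodes a subunit of the oxoglutarate dehydrogenase of the citric acid cycle, and its values ran from 14.51 units in BXD97 to 14.90 units in BXD65. Among coregulators of nuclear receptors, *Nrip1*, a corepressor, fell as *Pparg* rose, with an r of −0.69 and a limma adjusted p of 0.00242. *Med1*, a subunit of the Mediator complex that binds nuclear receptors, rose with *Pparg*, with an r of 0.66 and a limma adjusted p of 0.00629. *Ebf2*, a factor of brown fat identity, rose with *Pparg* too, with an r of 0.60 and a limma adjusted p of 0.0296, and this call was lost without BXD43, BXD61, BXD80, BXD90, BXD95, BXD96 or BXD97. With the muscle covariate the r of *Nrip1*, *Med1* and *Ebf2* were −0.54, 0.43 and 0.41, without a call.

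With *Ppara*, 4 probe sets rose (0.00972%) and 0 fell (0%) in limma, and 3804 passed an unadjusted p under 0.05. Leaving out 1 strain moved the number called between 0, without BXD61 or BXD62, and 37, without BXD66. With arrays centred on their median 103 rose and 9 fell, with dim probe sets left out 65 rose and 12 fell, and with both parents included 37 rose and 6 fell. In limma 0 were called with the first principal component as a further covariate, with 3315 at an unadjusted p under 0.05, and 0 at an adjusted p of 0.01. None of the other 9 receptors was called, and 2 rose at an unadjusted p under 0.05. *Ano1*, a calcium-activated chloride channel, rose with *Ppara* at an r of 0.72, a rho of 0.69, a limma adjusted p of 0.0163 and a permutation p of 1e-05 for r, and the call was lost without BXD61 or BXD62, without the 2 farthest strains, with the first principal component as a further covariate and at an adjusted p of 0.01. *Idh3b* (0.75) and *Phyh* (0.71) had similar r but limma adjusted p of 0.0633 and 0.0620. *Slc38a3* had the lowest r, −0.63, at a limma adjusted p of 0.0633, was highest in BXD70 at 11.82 units, and had an r of −0.53 without that strain. The liver markers had an r of −0.42 with *Ppara* over all 35 strains and of −0.03 without BXD70. With *Ppara* the mean of the muscle markers had an r of −0.43, a rho of −0.44, permutation p of 0.0111 and 0.00898, and −0.56 without BXD61 and BXD70, at a limma adjusted p of 0.237, and 13 of 13 muscle markers fell at an unadjusted p under 0.05. For the macrophage markers the mean had an r of −0.42, a rho of −0.30, permutation p of 0.0144 and 0.0790, and −0.20 without BXD61 and BXD70, at a limma adjusted p of 0.160, and 4 of 8 fell at an unadjusted p under 0.05. The part of these tissues in the values of *Ppara* was not tested. Among LXR target genes no gene was called with any receptor in limma, with 14 rising and 12 falling at an unadjusted p under 0.05 among 100 comparisons, or 26% against 10.9% of all probe sets over the 10 fits, and the largest r in size was that of *Abca1* with *Ppara*, −0.59, at an adjusted p of 0.109.

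With *Ppard*, 19 probe sets rose (0.0462%) and 18 fell (0.0437%) in limma, and the total moved between 7, without BXD50, and 68, without BXD64. With arrays centred on their median 1 rose and 0 fell, under quantile normalization 51 rose and 78 fell, and with the brown fat markers as a further covariate 0 were called in limma and 3475 passed an unadjusted p under 0.05. Of the other 9 receptors 0 were called in limma, and 0 passed an unadjusted p under 0.05. The genes with the highest r were *Zc3h3* (0.69), *Wipf2* (0.68) and *Atn1* (0.67), and the lowest was *Rpl15* (−0.71), a protein of the large ribosomal subunit, with limma adjusted p of 0.0415, 0.0415, 0.0369 and 0.0369. These calls depended on single strains: that of *Zc3h3* was lost on leaving out any of 14 strains, that of *Wipf2* on any of 15, and those of *Atn1* and *Rpl15* on any of 9 each. BXD97, the strain with the lowest *Ppard*, was among the strains in each case. The mean of the brown fat markers had an r of 0.45 with *Ppard*, a rho of 0.33 and permutation p of 0.0066 and 0.0559. The r was 0.32 without BXD66 and BXD97, and limma gave no call, at an adjusted p of 0.123. All 9 brown fat markers had a positive r, and 0 were called in limma. At an unadjusted p under 0.05, which 11.5% of all probe sets passed, 3 of them rose. The part of brown fat tissue in the values of *Ppard* was not tested.

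With *Rxra*, 1 probe set rose (0.00243%) and 1 fell (0.00243%) in limma, and the total moved between 0, on leaving out any of 12 strains, and 5, without BXD65. With arrays centred on their median 0 were called in limma, at 3336 with an unadjusted p under 0.05, and with dim probe sets left out 5 rose and 16 fell. Among the other 9 receptors 0 were called in limma, and 0 passed an unadjusted p under 0.05. The one that rose was *Fgfr1*, the receptor of fibroblast growth factors, with an r of 0.74, a rho of 0.70, permutation p of 2e-05 for r and a limma adjusted p of 0.0266. The one that fell was *Stk3*, a kinase of the Hippo pathway, with an r of −0.76, a rho of −0.79, permutation p of 1e-05 for r and a limma adjusted p of 0.0266. The call of *Fgfr1* was lost on leaving out any of 12 strains and that of *Stk3* on any of 13. Both were also lost without the 2 farthest strains, with ranks of the covariate and with the first principal component as a further covariate. In these limma fits 0 probe sets were called, and 3771, 3946 and 3471 passed an unadjusted p under 0.05. Without BXD55 and BXD96 the r was 0.64 for *Fgfr1* and −0.75 for *Stk3*. *Larp1* (0.68) and *Sap18* (0.65) followed without a call, at limma adjusted p of 0.0763 and 0.149. All 13 skeletal muscle markers had a positive r with *Rxra*, and 0 of them were called in limma. At an unadjusted p under 0.05, which 9.95% of all probe sets passed, 10 of these 13 markers rose. Their mean had an r of 0.37, a rho of 0.31, permutation p of 0.0290 and 0.0707, 0.33 without BXD55 and BXD96, and a limma adjusted p of 0.391. With that mean as a further covariate 0 probe sets were called with *Rxra* in limma. An unadjusted p under 0.05 was passed by 4003, against 4095 without that covariate. The part of muscle transcripts in the values of *Rxra* was not tested.

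With *Rxrg*, 20 probe sets rose (0.0486%) and 8 fell (0.0194%) in limma, and the total moved between 7, without BXD79, and 81, without BXD48. Without the 2 farthest strains 2 rose and 0 fell in limma, with 4464 at an unadjusted p under 0.05. With dim probe sets left out 195 rose and 85 fell, with arrays centred on their median 80 rose and 25 fell, with the first principal component as a further covariate 120 rose and 54 fell, and with the brown fat markers as one 0 were called in limma and 3226 passed an unadjusted p under 0.05. The calls over all 35 strains included 0 of the other 9 receptors, of which 2 rose and 1 fell at an unadjusted p under 0.05. *Dnajc7* (0.74), *Bri3bp* (0.74) and *Orai3* (0.73) had the highest r, at limma adjusted p of 0.0160, 0.00559 and 0.00559, and *Mir5099* the lowest (−0.67), at 0.0309, a call lost without BXD45, BXD66, BXD79 or BXD81. *Lep*, the leptin gene and a white fat marker, fell as *Rxrg* rose. Its own values ran from 9.08 units in BXD43 to 13.38 units in BXD61. The r was −0.63 and rho −0.66, with permutation p of 4e-05 and 2e-05, −0.55 without BXD45 and BXD90, and a limma adjusted p of 0.0380, a call lost on leaving out any of 14 strains. The mean of the endothelial markers also ran against *Rxrg*, with an r of −0.54, a rho of −0.51, permutation p of 0.00097 and 0.0022, −0.53 without BXD45 and BXD90, and a limma adjusted p of 0.0449. That fit called 2.77% of all probe sets with the endothelial markers, and the call of *Rxrg* was lost on leaving out any of 19 strains. The mean of the brown fat markers had an r of 0.50 with *Rxrg*, a rho of 0.41 and permutation p of 0.00236 and 0.0156. The r was 0.41 without BXD45 and BXD90, and limma gave no call, at an adjusted p of 0.0650. For the white fat markers these values were −0.48, −0.51, 0.00314 and 0.00191, −0.37 and 0.0708. The part of these tissues in the values of *Rxrg* was not tested.

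With *Nr1h3*, 193 probe sets rose (0.469%) and 150 fell (0.364%) in limma, and the total moved between 158, without BXD51, and 481, without BXD49. Without the 2 farthest strains 45 rose and 51 fell, and with arrays centred on their median 122 rose and 92 fell. Under quantile normalization 285 rose and 215 fell, and with dim probe sets left out 325 rose and 296 fell. Of the other 9 receptors 1 rose, *Esrra*. *Ucp1* rose with *Nr1h3*: its lowest value was 14.82 units in BXD84, its median 15.41 units and its highest 15.69 units in BXD87. The r was 0.66 and rho 0.65, with permutation p of 2e-05 and 1e-05, 0.60 without BXD83 and BXD90, and a limma adjusted p of 0.00849. *Otop1*, a proton channel that marks brown fat, rose as well, with an r of 0.74 and a limma adjusted p of 0.00108. The mean of the brown fat markers rose with *Nr1h3* at an r of 0.61, a rho of 0.61, permutation p of 0.00012 and 0.00017, 0.56 without BXD83 and BXD90, and a limma adjusted p of 0.0117, in a fit that called 3.52% of all probe sets with these markers. The part of the amount of brown fat tissue in these values was not tested. With the mean of the brown fat markers as a further covariate, 0 probe sets were called with *Nr1h3* in limma, and 3675 passed an unadjusted p under 0.05, against 5502 without that covariate. *Ucp1* and *Otop1* are themselves among the markers averaged in that covariate. The highest r to *Nr1h3* belonged to *2400001E08Rik* (0.77), now named *Lamtor1*, which anchors signalling complexes at lysosomes, to *Atp6v0a2* (0.76), a subunit of the proton pump of lysosomes, and to *Gyk* (0.76), the glycerol kinase, each at a limma adjusted p of 0.000978. The lowest was that of *Sec24b* (−0.75), at 0.00479. With the brown fat covariate the r of these 4 genes were 0.64, 0.57, 0.61 and −0.60, without a call.

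With *Esrra*, 38 probe sets rose (0.0923%) and 13 fell (0.0316%) in limma, and the total moved between 18, without BXD45 or BXD83, and 101, without BXD95. Under quantile normalization 87 rose and 44 fell, with both parents included 80 rose and 48 fell, and with dim probe sets left out 83 rose and 37 fell. With arrays centred on their median 23 rose and 5 fell, and with ranks of the covariate 21 rose and 9 fell. In limma 0 were called without the 2 farthest strains and 0 with the brown fat markers as a further covariate, with 4588 and 2580 at an unadjusted p under 0.05 against 4464 over all strains without a covariate, so each gene called with *Esrra* lost its call in both. Of the other 9 receptors 1 rose, *Nr1h3*. *Esrra* shared the genes at its top with *Nr1h3*: *Atp6v0a2* had an r of 0.77 and *2400001E08Rik* one of 0.74, at limma adjusted p of 0.00281 and 0.0107. *Bysl* followed (0.73), and *Rassf4* was lowest (−0.69), at limma adjusted p of 0.0142 and 0.0152. *Otop1* rose with *Esrra* at an r of 0.66 and a limma adjusted p of 0.0225, a call lost without BXD45, BXD83 or BXD90. *Otop1* is itself one of the markers averaged in the brown fat covariate. The mean of the brown fat markers had an r of 0.55 with *Esrra*, a rho of 0.52, permutation p of 0.00051 and 0.00163, 0.47 without BXD45 and BXD90, and a limma adjusted p of 0.0323. Leaving out BXD45, BXD51, BXD75, BXD83, BXD90 or BXD97 took that call away.

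With *Esrrg*, 18 probe sets rose (0.0437%) and 157 fell (0.381%) in limma. No probe set was called when any of 12 strains was left out, BXD43, BXD61, BXD65, BXD68, BXD69, BXD70, BXD79, BXD83, BXD85, BXD90, BXD95 or BXD96, and 298 were called without BXD55. In limma 0 were also called with arrays centred on their median, with both parents included, with ranks of the covariate, with the first principal component or the brown fat markers as a further covariate and without the 2 farthest strains, with 4911, 3831, 3446, 3904, 3290 and 3365 at an unadjusted p under 0.05. Under quantile normalization 28 rose and 214 fell. None of the other 9 receptors was called, and 1 rose at an unadjusted p under 0.05. All 13 skeletal muscle markers fell as *Esrrg* rose. With their mean *Esrrg* had an r of −0.61 and a rho of −0.59, with permutation p of 0.00012 and 0.00028. The r was −0.51 without BXD85 and BXD90, and the limma adjusted p over all strains was 0.0243. The call was lost without BXD65, BXD85 or BXD90 and at an adjusted p of 0.01. It was lost too without the 2 strains farthest from the median of the muscle mean, the covariate of that fit. It was also lost with the first principal component or the brown fat markers as a further covariate. *Tm9sf1* (0.67), *Slc35e2* (0.65) and *Pctp* (0.64) had the highest r to *Esrrg*, and *Asb2*, a gene of striated muscle, the lowest (−0.68), at limma adjusted p of 0.0484, 0.0392, 0.0392 and 0.0392. The calls of *Slc35e2*, *Pctp* and *Asb2* were lost without any of the same 12 strains, and that of *Tm9sf1* without any of 25. With the muscle covariate the r of *Tm9sf1*, *Slc35e2*, *Pctp* and *Asb2* were 0.50, 0.53, 0.52 and −0.41. The part of muscle transcripts in these values was not tested, and with their mean as a further covariate 0 probe sets were called with *Esrrg* in limma, while 1703 passed an unadjusted p under 0.05, against 3752 without that covariate. With *Esrrg* the mean of the brown fat markers had an r of 0.48, a rho of 0.53 and permutation p of 0.00325 and 0.00115. The r was 0.49 without BXD85 and BXD90, and limma gave no call, at an adjusted p of 0.101. For the white fat markers these values were −0.45, −0.35, 0.00683 and 0.0431, −0.42 and 0.128. For the macrophage markers they were −0.36, −0.34, 0.0327 and 0.0430, −0.34 and 0.300. The part of these tissues in the values of *Esrrg* was not tested.

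With *Thra*, 27 probe sets rose (0.0656%) and 10 fell (0.0243%) in limma, and the total moved between 0, without BXD45 or BXD85, and 65, without BXD49. Under quantile normalization 9 rose and 1 fell, with arrays centred on their median 86 rose and 16 fell, with both parents included 116 rose and 57 fell, and with dim probe sets left out 95 rose and 58 fell. In limma 0 were called without the 2 farthest strains and 0 with the brown fat markers as a further covariate, with 3327 and 3547 at an unadjusted p under 0.05. Here too 0 of the other 9 receptors were called in limma, and 1 rose and 2 fell at an unadjusted p under 0.05. *Pdzd2* (0.77), *Mapk8ip3* (0.72) and *Notch1* (0.71) had the highest r, and *Fam192a* the lowest (−0.70), at limma adjusted p of 0.0121, 0.0223, 0.0223 and 0.0276. Leaving out BXD45 or BXD85 took all 4 calls away, and leaving out BXD103 took those of *Mapk8ip3*, *Notch1* and *Fam192a*. The call of *Fam192a* was also lost without BXD51, BXD79 or BXD95. The mean of the endothelial markers had an r of 0.43 with *Thra*, a rho of 0.32 and permutation p of 0.00955 and 0.0642. The r was 0.38 without BXD95 and BXD103, and limma gave no call, at an adjusted p of 0.167. All 7 endothelial markers had a positive r, and 3 rose at an unadjusted p under 0.05. That limit was passed by 4118 of 41154 probe sets. The part of endothelium in the values of *Thra* was not tested. *Nr1d1*, which overlaps the end of *Thra* on the other strand and encodes the clock receptor REV-ERB alpha, did not follow it, with an r of 0.08, a rho of 0.09 and a permutation p of 0.645 for r.

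With *Thrb*, 285 probe sets rose (0.693%) and 227 fell (0.552%) in limma, and the total moved between 172, without BXD61, and 641, without BXD87. With arrays centred on their median 553 rose and 234 fell, and with dim probe sets left out 477 rose and 361 fell. Under quantile normalization 161 rose and 175 fell, and with both parents included 178 rose and 260 fell. Without the 2 farthest strains 72 rose and 43 fell. None of the other 9 receptors was called, and 1 rose at an unadjusted p under 0.05. *Lep* fell as *Thrb* rose: BXD43 had the highest *Thrb* and the lowest *Lep*, and BXD61 had low *Thrb* and the highest *Lep*. The r was −0.70 and rho −0.69, with permutation p of 2e-05 each, −0.63 without BXD43 and BXD92, and a limma adjusted p of 0.00456. *Npr3*, the clearance receptor of natriuretic peptides and another white fat marker, fell too, with an r of −0.69 and a limma adjusted p of 0.00526. Both kept their calls under each alternative and on leaving out any strain. Of the 7 white fat markers 5 fell and 1, *Retn*, rose at an unadjusted p under 0.05, with an r of 0.33 and a limma adjusted p of 0.378 for *Retn*. With *Thrb* 12.2% of all probe sets passed that unadjusted limit. The mean of the white fat markers had an r of −0.57 with *Thrb*, a rho of −0.49, permutation p of 0.00039 and 0.0032, −0.55 without BXD43 and BXD92, and a limma adjusted p of 0.0147, which was lost without BXD61, in a fit that called 4.92% of all probe sets with these markers. Without a call in limma, the macrophage markers had an r of −0.44 with *Thrb*, a rho of −0.41, permutation p of 0.00918 and 0.0161, −0.45 without BXD43 and BXD92, and an adjusted p of 0.125, and 4 of 8 fell at an unadjusted p under 0.05. For the endothelial markers these values were −0.45, −0.45, 0.00746 and 0.00793, −0.51 and 0.128, and 3 of 7 fell. The part of white fat cells, macrophages and endothelium in these values was not tested.

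**Figure D3:**
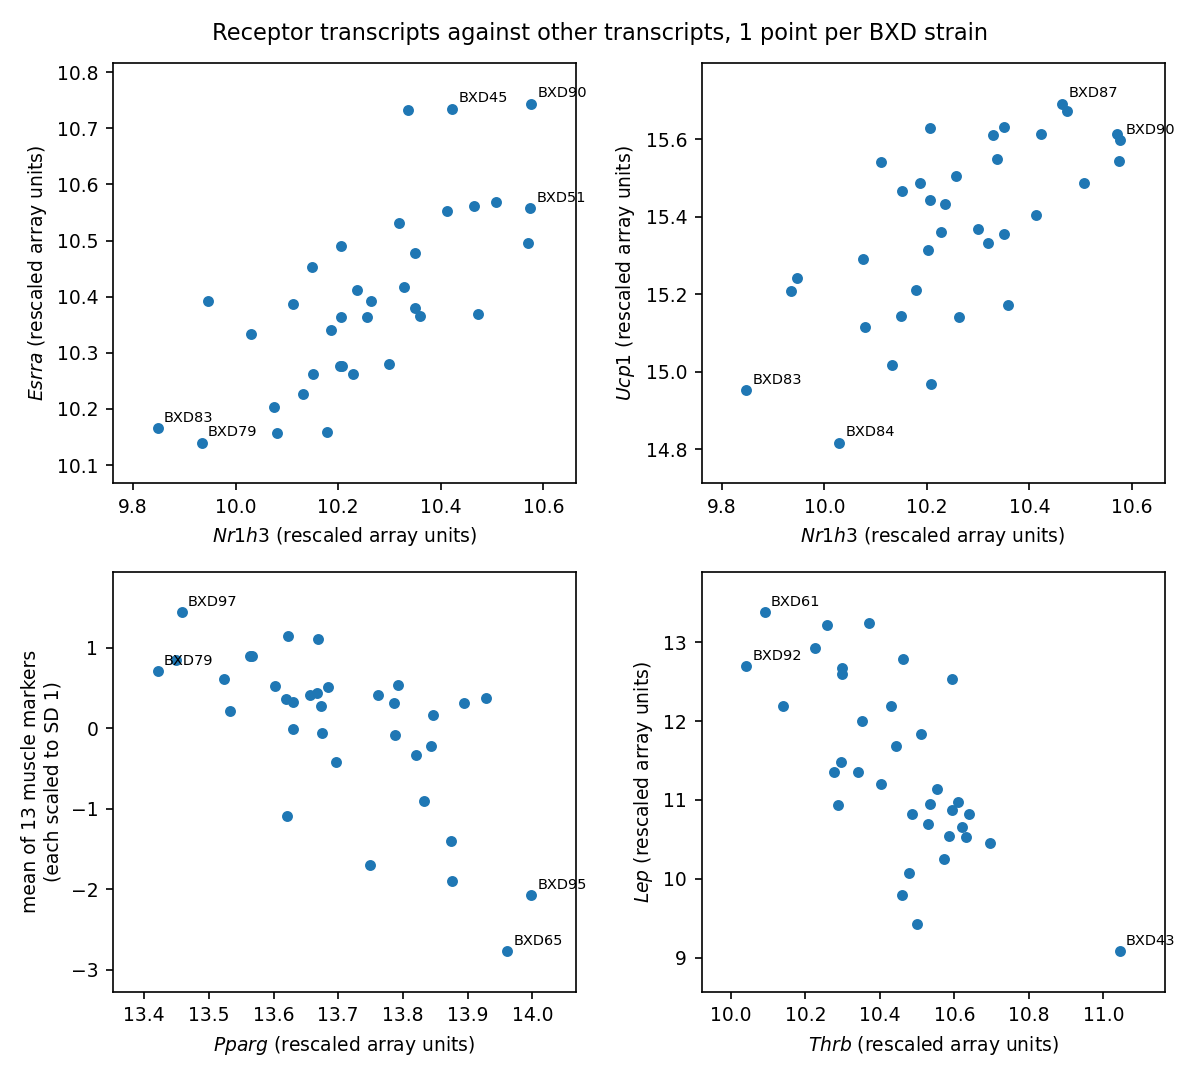
Receptor transcripts against other transcripts over 35 BXD strains, 1 point per strain, in rescaled array units, with the muscle markers as a mean of scaled values. *Esrra* and *Ucp1* are plotted against *Nr1h3*, the muscle markers against *Pparg*, and *Lep* against *Thrb*, where BXD43 lies apart at the right.

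Among the genes most like *Thrb* were *Calcoco1* (0.75) and *Ulk1* (0.75), both known from autophagy, and *Gatad2b* (0.74), at limma adjusted p of 0.00526, 0.00123 and 0.00526, and the call of *Gatad2b* was lost without BXD43. *Flna*, which encodes the actin-binding filamin A, had the lowest r (−0.78), at a limma adjusted p of 0.000441. Without BXD43 and BXD92 the r of *Ulk1* was 0.67 and that of *Flna* −0.67. *Pck1*, the phosphoenolpyruvate carboxykinase used in glyceroneogenesis, rose with *Thrb* at an r of 0.65 and a limma adjusted p of 0.0192, lost without BXD43 or BXD61. *Sirt1*, a deacetylase that acts on coregulators, rose at an r of 0.60 and a limma adjusted p of 0.0396, lost on leaving out any of 9 strains. *Slc27a2*, a brown fat marker of fatty acid uptake, rose at an r of 0.54 and a limma adjusted p of 0.0403, lost on leaving out any of 11 strains. It was the only 1 of 9 brown fat markers called, 6 of 9 had a positive r, and their mean had an r of 0.23 with *Thrb*, a rho of 0.20, permutation p of 0.186 and 0.238, 0.31 without BXD43 and BXD92, and a limma adjusted p of 0.559.

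Calls of known target genes with their own receptor are given beside those over all probe sets. In limma the share of all probe sets called in 1 direction ran from 0%, falling with *Ppara*, to 0.945%, falling with *Pparg*. A count of 0 among 10 to 28 target genes lies near these shares. All 28 PPAR targets, 10 LXR targets, 10 ERR targets and 11 thyroid hormone targets found on the array were above background. With *Pparg*, 0 of 28 PPAR targets were called in limma, and 5 rose and 1 fell at an unadjusted p under 0.05, with a median r of 0.12 against 0.01 for all probe sets, of which 10.3% passed that limit. With *Ppara*, 0 of 28 were called in limma, and 4 rose and 2 fell at an unadjusted p under 0.05, a limit that 9.24% of all probe sets passed. With *Nr1h3*, 0 of 10 LXR targets were called in limma, and 3 rose and 2 fell at an unadjusted p under 0.05, against 13.4% of all probe sets. With dim probe sets left out, *Abca1* (0.51) and *Lpcat3* (0.52) rose and *Apoe* (−0.51) fell as *Nr1h3* rose, at limma adjusted p of 0.0464, 0.0450 and 0.0450. *Abca1*, the cholesterol exporter, was also called with the muscle markers as a further covariate, at an r of 0.57 and a limma adjusted p of 0.0452. These 3 genes were named after their values were seen. With *Esrra*, 0 of 10 ERR targets were called in limma, and 2 rose at an unadjusted p under 0.05, against 10.8% of all probe sets. In the fits over all probe sets the only targets called with their own receptor were 2 ERR targets with *Esrrg*. Both fell as *Esrrg* rose, against the median r of 0.15 for the 10 ERR targets. Of all probe sets 0.381% were called as falling with *Esrrg* in limma, and 9.12% passed an unadjusted p under 0.05. *Ckmt2*, the mitochondrial creatine kinase of muscle, had an r of −0.63 at a limma adjusted p of 0.0392. *Slc25a4*, the adenine nucleotide carrier of muscle, had an r of −0.60 at a limma adjusted p of 0.0463. The call of *Ckmt2* was lost on leaving out any of 12 strains and that of *Slc25a4* on any of 18. Like the 13 muscle markers, both genes were lowest in BXD65 and highest in BXD97, and with the mean of these markers as a further covariate the r with *Esrrg* was −0.20 for each, at a limma adjusted p of 0.999. Both genes also fell as *Pparg* rose, with r of −0.67 and −0.62 and limma adjusted p of 0.00188 and 0.0117, the second lost without BXD97, and with that covariate the r were −0.21 and −0.15. *Atp2a2*, the calcium pump of the sarcoplasmic reticulum and a thyroid hormone target, fell as *Pparg* rose at an r of −0.60 and a limma adjusted p of 0.0177, lost without BXD95 or BXD97, and with that covariate the r was −0.12 at a limma adjusted p of 0.980. With *Thra*, 0 of 11 thyroid hormone targets were called in limma, and 4 fell at an unadjusted p under 0.05, with a median r of −0.27 against −0.02 for all probe sets, of which 4118 of 41154 passed that limit. With *Thrb*, 0 of 11 were called in limma, and 0 passed an unadjusted p under 0.05, against 12.2% of all probe sets.

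Other nuclear receptors gave no call with any of the 10. Of 39 such genes 24 were above background, and among 390 comparisons in limma 37 rose and 20 fell at an unadjusted p under 0.05, or 14.6% against 10.9% of all probe sets over the 10 fits. The largest r in size was that of *Rora* with *Pparg*, −0.56, with a rho of −0.59, permutation p of 0.00033 each, −0.56 without BXD65 and BXD95 and an adjusted p of 0.0509 in limma. Among the markers of macrophages, lymphocytes, red blood cells, liver and endothelium no single gene was called with a receptor in limma either, though some passed an unadjusted p under 0.05. In the order just given these were 20%, 5%, 2.5%, 12% and 21.4% of 80, 80, 40, 100 and 70 comparisons, against the same 10.9%. The largest r in these lists were those of *Csf1r* with *Thrb* (−0.53), *Cd79b* with *Thrb* (−0.41), *Slc4a1* with *Ppard* (0.50), *Apoh* with *Ppara* (−0.49) and *Pecam1* with *Rxrg* (−0.58). *Apoh* and *Cd79b* lay below background in the mean. Without BXD70 the r of *Apoh* with *Ppara* was −0.25, and without BXD43 and BXD92 that of *Cd79b* with *Thrb* was −0.23.

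The neighbours of each receptor on its chromosome, the nearest 10 genes above background on each side, were looked up in the gene order of RefSeq. For 7 of the 10 receptors 0 of 20 neighbours were called in limma, where an unadjusted p under 0.05 was passed by 0 with *Ppara*, 3 with *Ppard*, 0 with *Rxra*, 8 with *Rxrg*, 5 with *Esrra*, 3 with *Esrrg* and 4 with *Thra*. For the other 3 receptors 1 of 20 was called, and 3 passed that limit with *Pparg*, 6 with *Nr1h3* and 7 with *Thrb*. Of all probe sets between 9.12%, with *Esrrg*, and 13.4%, with *Nr1h3*, passed it. *Acp2*, the direct neighbour of *Nr1h3* and a lysosomal acid phosphatase, was called with it, with an r of 0.65 and a limma adjusted p of 0.0223. *Cand2* was called with *Pparg* at an r of −0.64 and a limma adjusted p of 0.00383, and *Nid2* with *Thrb* at an r of −0.55 and a limma adjusted p of 0.0493. Of all probe sets 0.469% rose with *Nr1h3*, 0.945% fell as *Pparg* rose and 0.552% fell as *Thrb* rose. These 3 genes were chosen after their values were seen.

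Promoters were read from RefSeq on GRCm38.p6, as windows from 250 bases before to 50 bases after a gene's start, and 9 of the 10 receptors, all but *Thra*, had 18 windows in all. The letters AGGTCA, the core element that these receptors bind, were found on either strand in 5 of the 18 windows, belonging to *Pparg*, *Rxra*, *Rxrg* and *Thrb*, and in 16.3% of all 32851 windows. The longer element of the estrogen-related receptors, TCAAGGTCA, was in 0 of the 18 windows and in 0.423% of all. The repeats AGGTCANAGGTCA and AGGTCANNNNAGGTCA, which contain the core element, were in 0 of the 18 windows and in 0.0396% and 0.0152% of all. The windows of *Nr1h3* and *Esrra*, the called pair, are shown because these genes moved together, and that of *Rxrg* because it holds the core element, in capitals. *Nr1h3* has 2 windows that share 219 bases, neither with the core element, and the one that reaches farther upstream is printed. *Rxrg* also has 2, of which the one with the core element is printed. The printed window of *Nr1h3* is chr2:91195067-91195366 on the minus strand, that of *Esrra* chr19:6921759-6922058 on the minus strand and that of *Rxrg* chr1:167618015-167618314 on the plus strand. A match is a description and not a site, and no match says only that these letters are not in this window.
Nr1h3: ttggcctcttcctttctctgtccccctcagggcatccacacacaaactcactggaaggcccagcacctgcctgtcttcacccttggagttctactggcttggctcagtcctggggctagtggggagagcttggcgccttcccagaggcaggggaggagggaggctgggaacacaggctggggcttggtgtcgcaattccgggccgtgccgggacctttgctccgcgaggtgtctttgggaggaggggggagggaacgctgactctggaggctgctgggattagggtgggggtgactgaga
Esrra: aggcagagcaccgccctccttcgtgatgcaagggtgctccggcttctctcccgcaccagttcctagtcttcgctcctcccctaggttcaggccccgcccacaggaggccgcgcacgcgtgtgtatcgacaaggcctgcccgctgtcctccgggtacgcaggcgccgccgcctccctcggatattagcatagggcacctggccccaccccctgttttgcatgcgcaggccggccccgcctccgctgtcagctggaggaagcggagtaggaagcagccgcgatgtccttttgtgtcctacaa
Rxrg: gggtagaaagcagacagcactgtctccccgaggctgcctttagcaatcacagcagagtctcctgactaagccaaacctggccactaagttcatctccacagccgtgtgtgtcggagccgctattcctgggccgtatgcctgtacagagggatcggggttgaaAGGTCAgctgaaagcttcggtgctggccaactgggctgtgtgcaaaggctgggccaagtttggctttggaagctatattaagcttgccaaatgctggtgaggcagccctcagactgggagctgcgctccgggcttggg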

How the data were processed

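The authors deposited scores: array values that they had set to mean 8 and SD 2 on each array. The submitters' notes name the Affymetrix Expression Console. The log base of these scores is not stated, so differences are in rescaled units. Of 41345 probe sets 190 array controls were left out. Members and lists were chosen with earlier results of these data known. Named genes are the 10 receptors, each called pair, for each receptor the 3 genes with the highest r and the 1 with the lowest among genes with 1 symbol above background, up to 4 called genes of each list (or the 1 with the largest r in size where none was called), and the marker genes; for each gene the probe set with the highest mean over the BXD arrays was used. The fits used limma 3.58.1 (lmFit and eBayes) in R 4.3.3, and were tested on simulated data. Correlations, permutations and figures used Python 3.11.15, matplotlib 3.10.9, pandas 2.3.3, scipy 1.17.1 and numpy 2.4.6. The RefSeq annotation of GRCm38.p6 gave current names, gene order and promoters. The alternatives left out strains or dim probe sets, rescaled the arrays, used ranks or a stricter limit, or added a covariate. Genotypes and other tissues were not analysed here.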

Additional observations from a re-analysis of the deposited data

How the results depend on the processing

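Of 5764 other values recomputed under the alternatives, 4469 kept their direction and side of the threshold, 816 were weaker, 31 stronger, 435 moved and 13 reversed. The numbers of probe sets rising or falling with a receptor made up 940 of these, and 431 of them moved by more than 1.5 times. All 10 receptors stayed above background, and 0 passed the 95th percentile of the parental difference, under every alternative. The called member pairs that covary numbered 0 with the 2 farthest strains left out, at an adjusted p of 0.01 and with brown fat markers as a covariate, 2 with dim probe sets left out, and 1 to 1 on leaving out each strain. Members that covary with the skeletal muscle list numbered 0 with brown fat markers as a covariate and when the 2 farthest strains were left out, 1 at an adjusted p of 0.01 and with the first principal component as a covariate, and 1 to 2 on leaving out each strain (1 without BXD65, BXD85 or BXD90). Cognate target genes that covary with their receptor numbered 0 with both parents included, with arrays centred on their median, without BXD70, with the 2 farthest strains left out, with ranks of the covariate, at an adjusted p of 0.01, with the first principal component and with brown fat markers as a covariate, 1 with skeletal muscle markers as a covariate, 5 with dim probe sets left out, and 0 to 2 on leaving out each strain: 0 without BXD43, BXD61, BXD65, BXD68, BXD69, BXD70, BXD79, BXD83, BXD85, BXD90, BXD95 or BXD96, and 1 without BXD48, BXD50, BXD71, BXD75, BXD84 or BXD101. Members with a range of at least 1 unit numbered 0 under quantile normalization and when the strains at either end were left out, and 0 to 1 on leaving out each strain (0 without BXD43 or BXD92). With skeletal muscle markers as a covariate, a list to which these genes themselves belong, r reversed for Pparg with Actn3 (0.10), Mybpc2 (0.15), Myh2 (0.10), Myh4 (0.13), Tnnc2 (0.14) and Tnni2 (0.14), and for Esrrg with Actn3 (0.0564), Ckm (0.18), Mybpc2 (0.14), Myh1 (0.0403), Myh4 (0.0506), Myoz1 (0.0936) and Tnni2 (0.36). Leaving out dim probe sets tests fewer probe sets, and leaving out strains leaves fewer samples; for the other changes the cause was not tested. The brown fat covariate was chosen after seeing the data. Signal over background limits what dim probe sets can show.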
